A study of Mus musculus with 6 samples.

Results

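Transcripts of the integrated stress response were examined in livers of mice that had lost LKB1, the serine/threonine kinase encoded by Stk11, and in control livers. The set holds 10 genes taken by symbol: Atf4, Atf5, Ddit3, Trib3, Ppp1r15a, Asns, Chac1, Sesn2, Fgf21 and Gdf15. They fill 11 of the 55450 rows of the deposited table, because Ddit3 has a second, short gene model. The 3 mice called KO here carried floxed alleles of LKB1 (LKB1 fl/fl), and the 3 control mice were wild type (WT). All 6 mice are labelled strain C57BL/J and received Cre in an adeno-associated virus of serotype 8 (AAV8), a vector that mainly transduces hepatocytes, so Cre and virus were shared by both groups and the controls had no floxed allele. The virus was given at 6 weeks of age and the left liver lobe was taken 4 weeks later, at 10 weeks. The promoter that drove Cre and the dose of virus are not given in the labels. Polyadenylated RNA was sequenced as 1 library per mouse, with total counts between 47659122 and 56147667.

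The integrated stress response is a pathway in which kinases that sense amino acid shortage, unfolded protein in the endoplasmic reticulum, double-stranded RNA or haem shortage phosphorylate the translation factor eIF2. General protein synthesis then falls, while mRNAs with short upstream reading frames, Atf4 among them, are translated better. The transcription factor ATF4 raises genes for amino acid supply and for feedback on the pathway, and in the liver the pathway is known for inducing the circulating hormones FGF21 and GDF15. Because ATF4 is controlled mainly at translation, its mRNA level is not a measure of its protein level, which was not measured here.

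The labels were first set against the data. Stk11 was at 22.2, 14.4 and 11.4 CPM (counts scaled to a common library size after TMM normalisation) in KO 1 to 3 and at 66.1, 64.2 and 69.7 CPM in WT 1 to 3, and its log2 fold change was -2.06 ± 0.247 (SE, edgeR adjusted p = 0.0167). Replicate 1 of each group had Xist counts and nearly no Y-linked counts, and the other 4 libraries the reverse, which the labels do not mention. Results below are therefore also given for those 4, called Y-positive (2 against 2). They are also given for the other 2, the Xist-positive pair (1 against 1, no test). Stk11 changed by -2.38 ± 0.148 (log2, SE) in the Y-positive libraries and by -1.57 in the Xist-positive pair. KO 1, in that pair, kept the most Stk11 of the KO libraries, so Xist state and the extent of Stk11 loss cannot be told apart. Hepatocyte markers (8 genes, Alb among them) were present in every library, and their summed level, most of it Alb in 4 of the 6 libraries, was 23500 to 70300 CPM in KO and 82900 to 120000 CPM in WT. Alb, Apoa1, Ttr and Apob were lower in every KO library than in any WT library and none of them was called, Tat was called higher (1.86 ± 0.314, edgeR adjusted p = 0.0344), Hnf4a was higher in every KO library (0.20), and Asgr1 (-0.18) and Serpina1a (0.03) overlapped. The 7 endothelial markers summed to 75.5 to 129 CPM in KO and 156 to 214 CPM in WT, whereas the summed ranges of macrophage, stellate, bile duct, and lymphocyte and neutrophil markers overlapped between the groups, and no marker of the 6 lists was at or under 3 counts in every library. In bulk tissue fewer cells of a type and less RNA per cell cannot be told apart, and the part of these shifts in the results was not tested.

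Atf5 rose in KO liver, and it was the only one of the 10 genes past the threshold of an adjusted p under 0.05. Of all 14539 genes tested, 3.37% passed that threshold, 2.15% as higher and 1.22% as lower, so that 63.9% of the calls were higher (74.4% with library size alone as the scaling). Asns, Fgf21 and Gdf15 were also higher in every KO library than in any WT library, a separation seen in 16.9% of all genes tested, but with Atf5 they make 4 of 10 genes and only Atf5 passed the test. The fitted change was above 0 for 9 of the 10 genes, against 50.9% of all genes, and Chac1 was the exception. The median log2 fold change was 1.38 over the 10 genes and 0.01 over all genes. At an unadjusted p under 0.05, 5 of the 10 genes were higher (Atf5, Asns, Gdf15, Fgf21 and Ddit3), against 14.6% of all genes.

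**Figure D1:**
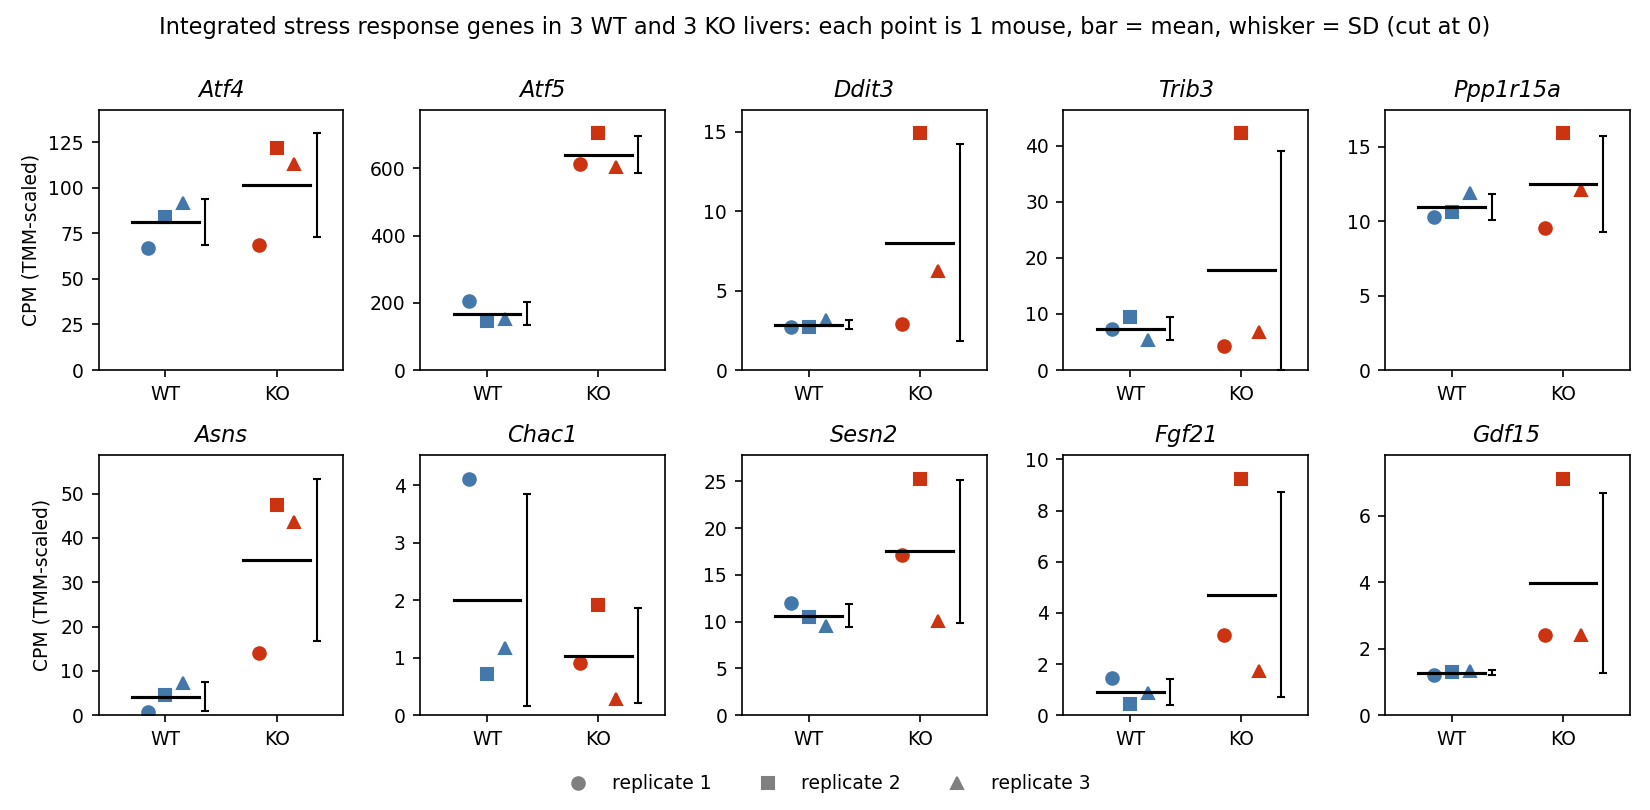
Normalised level (CPM) of the 10 genes in each mouse, with WT in blue, KO in red, a horizontal bar for the mean of 3 mice and a whisker for the SD. Atf5 shows 605 to 704 CPM in KO against 145 to 206 CPM in WT, whereas for Trib3 only KO 2, at 42.2 CPM, lies above the WT points.

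The transcription factors come first. Atf5, a basic leucine zipper factor whose mRNA, like that of Atf4, carries upstream start codons (GRCm38 chromosome 7, 44812256 to 44816658, minus strand), had 613, 704 and 605 CPM in KO and 206, 145 and 151 CPM in WT. The groups were far apart, since the lowest KO library had nearly 3 times the level of the highest WT library, and the spread within KO was small, with a coefficient of variation of 8.6%. The mean was 641 ± 55.1 CPM in KO and 167 ± 33.8 CPM in WT (SD, n = 3 each), a 3.83-fold difference (log2 1.94 ± 0.203, SE, edgeR adjusted p = 0.0109). The change was 2.14 ± 0.165 in the Y-positive libraries (edgeR adjusted p = 0.00111) and 1.57 in the Xist-positive pair. Leaving out KO 3, WT 2 or WT 3 raised the edgeR adjusted p to 0.0592, 0.102 and 0.104, in fits that called only 35, 6 and 20 genes in all, while the fold change kept its size (1.98, 1.85 and 1.87). Atf5 overlaps exons of Nup62 and Il4i1 on the opposite strand. Nup62 had 324 to 564 counts per library and Il4i1 at most 32, against at least 7039 for Atf5.

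Atf4 itself (chromosome 15, 80255184 to 80257541, plus strand), the central factor of the pathway, had 68.7, 122 and 113 CPM in KO and 67.2, 84.1 and 91.8 CPM in WT. KO 1 lay within the WT range and the other 2 KO libraries above it. Its change of 0.32 ± 0.242 (log2) missed the threshold (edgeR adjusted p = 0.429). In the Y-positive libraries it was 0.42 ± 0.118 (edgeR adjusted p = 0.0445), where 17.2% of all genes were called higher and 16.1% lower, and in the Xist-positive pair it was 0.03.

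Ddit3, which encodes CHOP, a factor linked to cell death in prolonged stress (chromosome 10, 127290774 to 127296288, plus strand), had 2.90, 14.9 and 6.26 CPM in KO and 2.70, 2.70 and 3.16 CPM in WT. WT libraries were nearly equal, KO 1 was within their range, and KO 2 and KO 3 were above it. The log2 fold change was 1.49 ± 0.546 over the 6 libraries (edgeR adjusted p = 0.147). It was 1.85 ± 0.42 in the Y-positive libraries (edgeR adjusted p = 0.0236) and 0.10 in the other pair. The second Ddit3 model, which overlaps the first, received 0.51 counts in KO 2 and 0 elsewhere, and was not tested. Ddit3 shares 68 nt with Mars on the opposite strand, which had 2997 to 3453 counts and was about level across the libraries.

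Next are the inhibitors that feed back on the pathway. Trib3, a pseudokinase that binds ATF4 and AKT (chromosome 2, 152337422 to 152344032, minus strand), had 4.34, 42.2 and 6.86 CPM in KO and 7.28, 9.41 and 5.35 CPM in WT. KO 2 alone was high, and KO 1 was below every WT library. The log2 fold change of 1.28 ± 0.817 (edgeR adjusted p = 0.359) became -0.39 ± 0.319 without KO 2. Ppp1r15a, also called GADD34, the subunit that directs a phosphatase to eIF2 (chromosome 7, 45522916 to 45526268, minus strand), had 9.52, 15.9 and 12.1 CPM in KO and 10.3, 10.6 and 11.9 CPM in WT. Its log2 fold change was 0.19 ± 0.203 (edgeR adjusted p = 0.575), and -0.01 without KO 2. Its exons overlap those of Tulp2 on the opposite strand, which had at most 20 counts.

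For the targets, promoter sequences were searched for the CARE, the joint binding site of C/EBP and ATF factors through which ATF4 acts, written as TGATGNAAN and read on both strands. The windows run from 250 bases before to 50 bases after each RefSeq start (GRCm38.p6), and all 10 genes matched by symbol, with 12 windows. A CARE was found for 4 of the 10 genes, Asns, Fgf21, Trib3 and Chac1, and for 4.50% of the 27025 genes with a window. The full cyclic AMP element TGACGTCA, a CREB site, was found in the window of Ppp1r15a, 12 bases before its start, and in 2.03% of genes, and the endoplasmic reticulum stress element (CCAAT, 9 bases of any kind and CCACG) in none of the 10 genes and in 0.137% of all. The 4 windows with a CARE follow, with the match in capitals, and then that of Atf5, the gene that passed the test, for which neither of 2 windows held any of the 3 motifs.
Asns (chr6:7693160-7693459, minus strand): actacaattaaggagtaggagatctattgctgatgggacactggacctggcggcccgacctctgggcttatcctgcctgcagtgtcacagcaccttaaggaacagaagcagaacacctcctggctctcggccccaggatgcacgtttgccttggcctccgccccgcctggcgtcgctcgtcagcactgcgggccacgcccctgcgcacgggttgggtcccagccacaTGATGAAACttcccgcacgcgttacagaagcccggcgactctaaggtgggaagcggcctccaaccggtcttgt
Fgf21 (chr7:45615441-45615740, minus strand): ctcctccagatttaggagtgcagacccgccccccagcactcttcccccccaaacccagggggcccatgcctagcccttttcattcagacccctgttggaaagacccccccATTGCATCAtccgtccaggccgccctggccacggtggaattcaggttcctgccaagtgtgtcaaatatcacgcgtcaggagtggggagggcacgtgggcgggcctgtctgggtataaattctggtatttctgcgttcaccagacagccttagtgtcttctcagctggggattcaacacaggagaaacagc
Trib3 (chr2:152344011-152344310, minus strand): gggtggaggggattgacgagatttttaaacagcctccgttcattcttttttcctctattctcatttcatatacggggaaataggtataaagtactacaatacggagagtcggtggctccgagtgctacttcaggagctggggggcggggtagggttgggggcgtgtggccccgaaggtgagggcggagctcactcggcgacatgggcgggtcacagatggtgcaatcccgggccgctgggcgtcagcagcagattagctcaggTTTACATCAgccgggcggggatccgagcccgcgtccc
Chac1 (chr2:119350992-119351291, plus strand): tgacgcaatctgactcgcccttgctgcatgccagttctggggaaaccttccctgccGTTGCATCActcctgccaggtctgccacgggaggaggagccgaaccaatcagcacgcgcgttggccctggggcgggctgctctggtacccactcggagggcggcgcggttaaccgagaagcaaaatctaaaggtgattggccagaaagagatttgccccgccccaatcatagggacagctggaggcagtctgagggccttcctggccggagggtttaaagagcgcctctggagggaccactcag
Atf5 (chr7:44816609-44816908, minus strand): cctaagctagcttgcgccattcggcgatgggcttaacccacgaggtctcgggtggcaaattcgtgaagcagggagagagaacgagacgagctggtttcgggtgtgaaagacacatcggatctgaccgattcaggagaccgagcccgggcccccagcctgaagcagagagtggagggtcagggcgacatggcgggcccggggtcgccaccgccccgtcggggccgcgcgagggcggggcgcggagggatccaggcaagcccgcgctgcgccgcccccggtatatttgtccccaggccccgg
The match starts 23 bases before the start of Asns and 140 and 194 bases before those of Fgf21 and Chac1. In Trib3 it lies just after the start, by 13 bases. A match of letters is a description of the window and no evidence of binding. The log2 fold changes of the 4 genes spanned the whole range of the set, from -0.94 for Chac1 to 3.09 for Asns.

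Asns, asparagine synthetase and a standard ATF4 target (chromosome 6, 7675169 to 7693254, minus strand), had the largest fold of the 10 genes, with 14.0, 47.5 and 43.7 CPM in KO and 0.65, 4.55 and 7.16 CPM in WT. Every KO library was above every WT library, and replicate 1 was the lowest of its group on both sides. The mean was 35.1 ± 18.4 CPM in KO and 4.12 ± 3.28 CPM in WT (SD, n = 3 each), and the log2 fold change was 3.09 ± 0.835 (edgeR adjusted p = 0.083). In both subsets the difference was large, at 2.96 ± 0.226 in the Y-positive libraries (edgeR adjusted p = 0.00107) and 4.23 in the Xist-positive pair. With the Xist state of the library added as a term, it was 3.36 ± 0.349 (edgeR adjusted p = 0.0143).

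Chac1, an enzyme that breaks down glutathione (chromosome 2, 119351229 to 119354381, plus strand), did not share this pattern. It had 0.91, 1.93 and 0.28 CPM in KO and 4.12, 0.71 and 1.18 CPM in WT, from only 13 to 209 counts per library. WT 1 was the highest of the 6 libraries and KO 3 the lowest, and the groups overlapped. The log2 fold change was -0.94 ± 0.843 (edgeR adjusted p = 0.51) and turned to 0.14 ± 0.772 without WT 1. It was 0.24 ± 0.816 in the Y-positive libraries (edgeR adjusted p = 0.845) and -2.06 in the other pair, opposite in sign.

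Sesn2, a sestrin that senses leucine and restrains the growth kinase complex mTORC1 (chromosome 4, 132492032 to 132510501, minus strand), had 17.1, 25.3 and 10.1 CPM in KO and 11.95, 10.5 and 9.52 CPM in WT. KO 1 and KO 2 were above the WT range and KO 3 within it. The log2 fold change was 0.72 ± 0.315 (edgeR adjusted p = 0.203), 0.82 in the Y-positive libraries (edgeR adjusted p = 0.175) and 0.51 in the other pair. Without KO 2 it was 0.36 ± 0.252.

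Of the 2 secreted hormones, FGF21 acts on adipose tissue and brain through the receptors FGFR1 and beta-klotho, and GDF15 acts in the hindbrain. Fgf21 (chromosome 7, 45613886 to 45615490, minus strand) had 3.14, 9.25 and 1.72 CPM in KO and 1.44, 0.42 and 0.88 CPM in WT, from 22 to 514 counts. All KO libraries were above all WT libraries, but KO 3 exceeded WT 1 by little. The mean was 4.70 ± 4.00 CPM in KO and 0.91 ± 0.508 CPM in WT (SD, n = 3 each), and the change of 2.36 ± 0.716 (log2) missed the threshold (edgeR adjusted p = 0.103). It was 3.08 ± 0.86 in the Y-positive libraries (edgeR adjusted p = 0.0425), 1.07 in the other pair and 1.42 ± 0.558 without KO 2.

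Gdf15 (chromosome 8, 70629393 to 70632456, minus strand) had 2.42, 7.11 and 2.40 CPM in KO and 1.20, 1.31 and 1.33 CPM in WT. The 3 WT libraries were nearly equal, and each KO library was above them. The log2 fold change was 1.64 ± 0.469 (edgeR adjusted p = 0.0932). It was 1.85 ± 0.525 in the Y-positive libraries (edgeR adjusted p = 0.0446), 0.95 in the other pair and 0.92 ± 0.245 without KO 2.

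**Figure D2:**
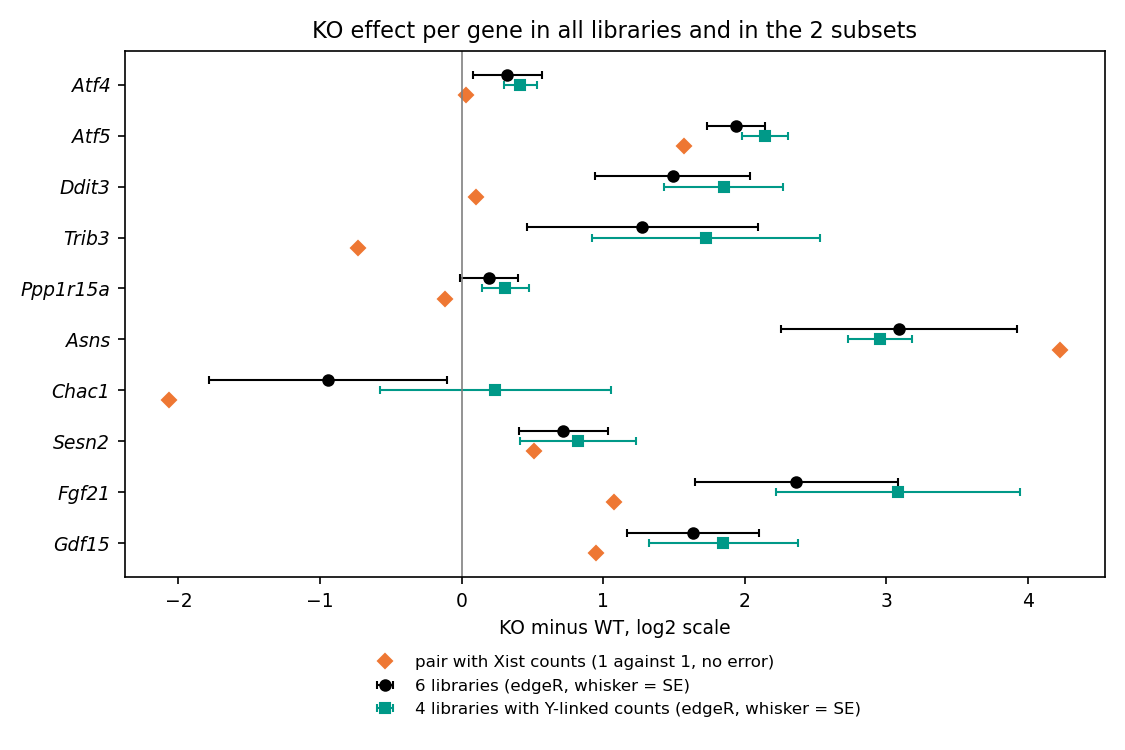
Difference between KO and WT on the log2 scale for each of the 10 genes, over the 6 libraries and in the 4 Y-positive libraries (edgeR log2 fold change, whisker SE), and in the Xist-positive pair (log2 ratio of CPM plus 0.1, 1 library against 1). Atf5 (1.57 to 2.14) and Asns (2.96 to 4.23) are well above 0 in all 3, whereas Ddit3, Atf4, Ppp1r15a, Trib3 and Chac1 are at or below 0.10 in the Xist-positive pair, with Chac1 the lowest at -2.06.

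The difference between the 2 subsets was tested as an interaction of genotype with Xist state, and 0 of the 10 genes passed it (smallest edgeR adjusted p = 0.164, for Asns, with Asns also the only gene at an unadjusted p under 0.05), against 2.90% of all genes. The test has 2 residual degrees of freedom. With no filter on low counts Asns, Chac1, Ddit3 and Trib3 passed it, in a fit that called 1607 of 23717 genes.

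KO 2 was the highest of the 3 KO libraries for 10 of the 10 genes and the highest of all 6 for 9 of them. Over all genes tested these shares were 33.4% and 25.2%. Without KO 2 the median log2 fold change of the 10 genes was 0.52 in place of 1.38, Atf5 was still called (1.87 ± 0.206, edgeR adjusted p = 0.0332), and Trib3 and Ppp1r15a changed sign. Without KO 1, in contrast, 5 of the 10 genes were called as higher, namely Asns, Atf4, Atf5, Ddit3 and Gdf15, in a fit that called 4473 of 14833 genes. KO 2 also had the lowest summed level of the 8 hepatocyte markers, 23500 CPM, of which Alb was 10390 CPM. It was the lowest library for 5 of the 8, whereas its Tat (3409 CPM) and Hnf4a (625 CPM) were above every WT library, and its Stk11 level lay between those of KO 1 and KO 3. The part of this in the values of KO 2 was not tested.

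**Figure D3:**
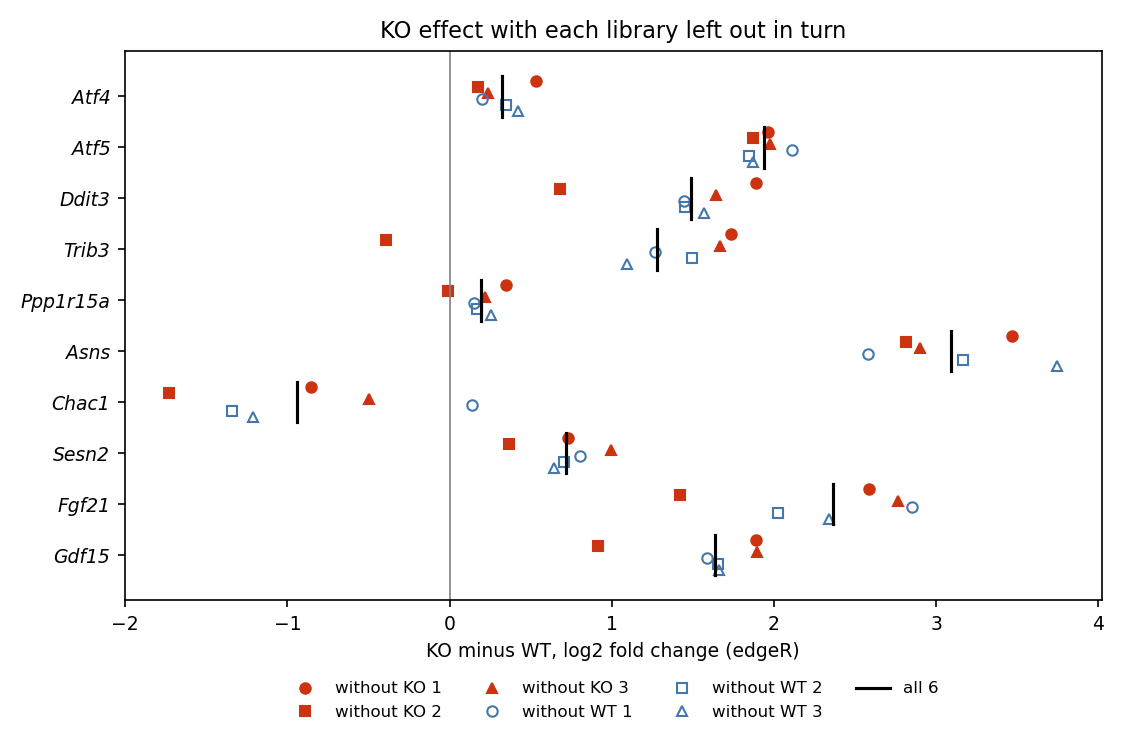
Log2 fold change of each of the 10 genes with all 6 libraries (black line) and with 1 library left out (filled red, a KO library; open blue, a WT library; the symbol gives the replicate). Removing KO 2 gives the lowest value for Ddit3 (0.68), Trib3 (-0.39), Fgf21 (1.42), Gdf15 (0.92), Sesn2 (0.36), Atf4 (0.17), Ppp1r15a (-0.01) and Chac1 (-1.73), whereas Atf5 stays between 1.85 and 2.11.

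Levels were compared between genes per kilobase of annotated exon. In WT liver Atf5, at 83.9 ± 17.0 CPM per kb, was followed by Atf4, at 34.4 ± 5.33 CPM per kb (SD, n = 3), and neither range over the libraries met that of its neighbour. Ppp1r15a, Trib3 and Sesn2 came next, at 3.72, 3.46 and 3.06 CPM per kb. The range of Trib3 overlapped those of Ppp1r15a (3.51 to 4.06) and Sesn2 (2.74 to 3.44), which did not meet each other. Along the order Ddit3, Asns, Chac1, Fgf21 and Gdf15, from 1.67 to 0.691 CPM per kb, each range overlapped the next. In KO liver Atf5 reached 321 ± 27.6 and Atf4 43.0 ± 12.1 CPM per kb, Asns came next at 12.8, and Chac1 was last at 0.633 CPM per kb with a range below that of Gdf15.

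In the annotated 5′ leaders (GENCODE M21, 1 transcript per gene) at least 1 ATG precedes the coding sequence in 7 of the 10 genes, against 45.1% of 21776 protein-coding genes. Atf4 and Ppp1r15a have 3 each, Gdf15 4, Atf5, Ddit3 and Asns 2 each, Sesn2 1, and Chac1, Fgf21 and Trib3 none. The leaders with an ATG run from 169 nt (Asns) to 594 nt (Atf4), and those without from 174 to 184 nt. All are longer than the median of 130 nt over all genes, and the comparison with 45.1% makes no allowance for length. The gene called here, Atf5, thus belongs with Atf4 among those with upstream ATGs, and the 3 genes without them all held a CARE in their promoter windows.

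Other genes of the pathway were read from 9 lists in the same fit, beginning with the sensors and eIF2 itself. Of 15 genes for the eIF2 kinases, eIF2 subunits, its exchange factor and regulators, 0 passed the threshold in edgeR in either direction, 1 had an unadjusted p under 0.05 (against 26.3% of all genes), and the median log2 fold change was 0.04. That gene was Eif2ak2, the kinase PKR that senses double-stranded RNA, with 21.1, 63.9 and 69.1 CPM in KO and 21.3, 19.6 and 20.3 CPM in WT. KO 1 was level with WT while KO 2 and KO 3 were about 3 times higher, and the log2 fold change was 1.33 ± 0.408 over the 6 libraries (edgeR adjusted p = 0.105) and 1.73 ± 0.103 in the Y-positive ones (edgeR adjusted p = 0.000603). The kinases of endoplasmic reticulum stress and amino acid shortage, Eif2ak3 (PERK) and Eif2ak4 (GCN2), named after their values were seen, had log2 fold changes of 0.04 ± 0.213 and -0.28 ± 0.154.

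Among 14 basic leucine zipper partners and related stress factors, 0 were called in edgeR in either direction, and 5 had an unadjusted p under 0.05, 4 of them higher and 1 lower (against 26.3% of all genes, 14.6% higher and 11.7% lower). With no filter on low counts edgeR called 1 higher, where it called 485 of 23717 genes higher. Ddit4, also called REDD1, an inhibitor of mTORC1, came nearest, with 6.30, 59.3 and 22.7 CPM in KO against 3.55 to 4.47 CPM in WT and a log2 fold change of 2.84 ± 0.73 (edgeR adjusted p = 0.076). Atf3, a stress-induced factor downstream of ATF4 named after its values were seen, had 1.70, 19.6 and 8.11 CPM in KO and 1.37 to 1.87 CPM in WT, again with KO 1 in the WT range (log2 fold change 2.60 ± 0.779, edgeR adjusted p = 0.1). In the Y-positive libraries 5 of the 14 were called higher and 2 lower, against 17.2% and 16.1% of all genes.

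Enzymes of amino acid and serine-linked folate metabolism that ATF4 is known to target held the most genes called higher of the 9 lists, 4 of 12, with 0 lower and a median of 1.11. Of all genes, 2.15% were called higher and 1.22% lower. The 4 enzymes called were Cth, Got1, Gpt2 and, outside the naming rule, Cbs. Cth, which makes cysteine from cystathionine, rose by 2.84 ± 0.357 (edgeR adjusted p = 0.018), and Got1 and Gpt2, aminotransferases for aspartate and alanine, rose by 3.19 ± 0.431 and 1.71 ± 0.285 (edgeR adjusted p = 0.0214 and 0.0331). These genes are abundant in liver and also belong to general amino acid breakdown. The enzymes of serine synthesis, Psat1 and Phgdh, named after their values were seen, were scarce, at 1.17 to 4.48 and 0.21 to 0.45 CPM in KO and at 0.68 to 1.10 and 0.06 to 0.15 CPM in WT. Neither passed (edgeR adjusted p = 0.12 and 0.119), although the groups did not overlap. Phgdh, with 12 to 25 counts in KO and 3 to 8 in WT, cleared the count filter through the KO libraries alone. Its lack of overlap therefore carries no weight. KO lay above WT without overlap for 16.9% of all genes. The count of 4 became 7 in the Y-positive libraries, 6 without KO 1 and 5 with DESeq2. In those fits 17.2%, 16.0% and 8.74% of all genes were called higher. The count fell to 1 with a replicate block or without KO 2, KO 3 or WT 1 and to 0 without WT 2 or WT 3. Few genes of any kind were called in most of these fits, 105 with the block and 35, 6 and 20 without KO 3, WT 2 and WT 3.

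Of 10 amino acid transporters 8 were tested, and 0 were called in edgeR, while 6 had an unadjusted p under 0.05, all higher (against 14.6% of all genes). The median was 1.07, and edgeR called 1 higher with the Xist state as a term and 7 in the Y-positive libraries. The fit with the Xist state called 1504 of 14539 genes in either direction. In the Y-positive libraries 17.2% of all genes were called higher. Slc38a2, a carrier of neutral amino acids, was the nearest to the threshold, at 348 ± 111 CPM in KO against 165 ± 19.7 CPM in WT (SD, n = 3). Its log2 fold change was 1.08 ± 0.267 (edgeR adjusted p = 0.0719). Slc7a11, the cystine carrier, had too few counts for the test over the 6 libraries. It was named after its values were seen. Of its counts, 141 fell in KO 2, 11 in KO 3 and at most 3 in any other library. In the Y-positive libraries it was tested and was among the 7 called, at 9.14 ± 2.42 (edgeR adjusted p = 0.0468). Both WT libraries of that fit had 0 counts, so it cleared the count filter through the KO libraries alone. Its call and its fold change therefore carry no weight.

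Of 18 other genes reported as ATF4 or CHOP targets, 0 were called higher and 1 lower (against 2.15% and 1.22% of all genes). Their median was 0.08. The 1 was Herpud1, a component of endoplasmic reticulum protein degradation, which had 105, 90.0 and 123 CPM in KO and 241, 269 and 231 CPM in WT. It fell by 1.22 on the log2 scale (SE 0.168, edgeR adjusted p = 0.0226), and the values in the subsets were -1.24 and -1.20. The 3 KO libraries, KO 2 included, were close together for this gene.

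Of 16 genes of the other branches of the unfolded protein response, those of XBP1 and ATF6, 0 were called higher and 4 lower, with a median of -0.38. Of all genes, 2.15% were called higher and 1.22% lower. Every KO library was below every WT library for 10 of the 16, against 15.5% of all genes. The groups overlapped for the other 6. Calr, Hsp90b1 and Atf6, named after their values were seen, had log2 fold changes above 0 (0.32, 0.07 and 0.02). Xbp1, the factor of the IRE1 branch, had 75.0, 92.6 and 82.9 CPM in KO and 190, 151 and 189 CPM in WT, a fall of 1.08 on the log2 scale (SE 0.159, edgeR adjusted p = 0.0261). Hyou1, a chaperone, fell by 1.14 and Creld2, a secreted stress protein, by 1.21 (edgeR adjusted p = 0.0223 and 0.0454), and the fourth was Manf, named after its values were seen (-0.67, edgeR adjusted p = 0.0455). The values in the Xist-positive pair were -1.34, -1.32, -1.01 and -0.80, in the same direction as in the Y-positive libraries. The count of 4 became 9 with DESeq2, 6 in the Y-positive libraries and 7 without KO 1. In those fits 7.01%, 16.1% and 14.2% of all genes were called lower. The count was 2 with library size alone as the scaling, where 131 of 14539 genes were called lower, and 1 without WT 1. It was 0 with a replicate block or without KO 2, KO 3, WT 2 or WT 3. The block called only 105 genes in all, and the fits without KO 3, WT 2 and WT 3 only 35, 6 and 20.

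Of 11 mitochondrial chaperones and proteases, whose load also engages the pathway, 0 were called in edgeR over the 6 libraries and 6 had an unadjusted p under 0.05, all higher (against 14.6% of all genes), with a median of 0.37. Other edgeR fits called 1 higher with library size alone as the scaling, where 380 of 14539 genes were called higher. With no filter on low counts 2 were called higher, as were 485 of 23717 genes. With the Xist state as a term 2 were called higher, in a fit that called 1504 of 14539 genes in either direction. In the Y-positive libraries 5 were called higher, where 17.2% of all genes were. Hspa9, the mitochondrial HSP70, had 941, 1816 and 1831 CPM in KO and 581 to 633 CPM in WT (1.34 ± 0.289, edgeR adjusted p = 0.0566). The 4 lists so far with 0 calls in edgeR (eIF2 control, leucine zipper and stress factors, transporters and mitochondrial proteins) also had 0 in limma voom, but DESeq2 called 1 eIF2 gene, 4 leucine zipper and stress factors, 3 transporters and 3 mitochondrial genes as higher, and 1 leucine zipper or stress factor as lower, where it called 8.74% of all genes higher and 7.01% lower. Without KO 1, the library in which several of these genes were level with WT, edgeR called 4, 5, 6 and 7 genes of the same 4 lists as higher, where it called 16.0% of all genes higher and 14.2% lower. Without any other single library it called 0, where the fits without KO 3, WT 2 and WT 3 called only 35, 6 and 20 genes in all. Dele1 and Oma1, which relay mitochondrial stress to eIF2 kinases and were named after their values were seen, had log2 fold changes of 0.05 and 0.16.

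**Figure D4:**
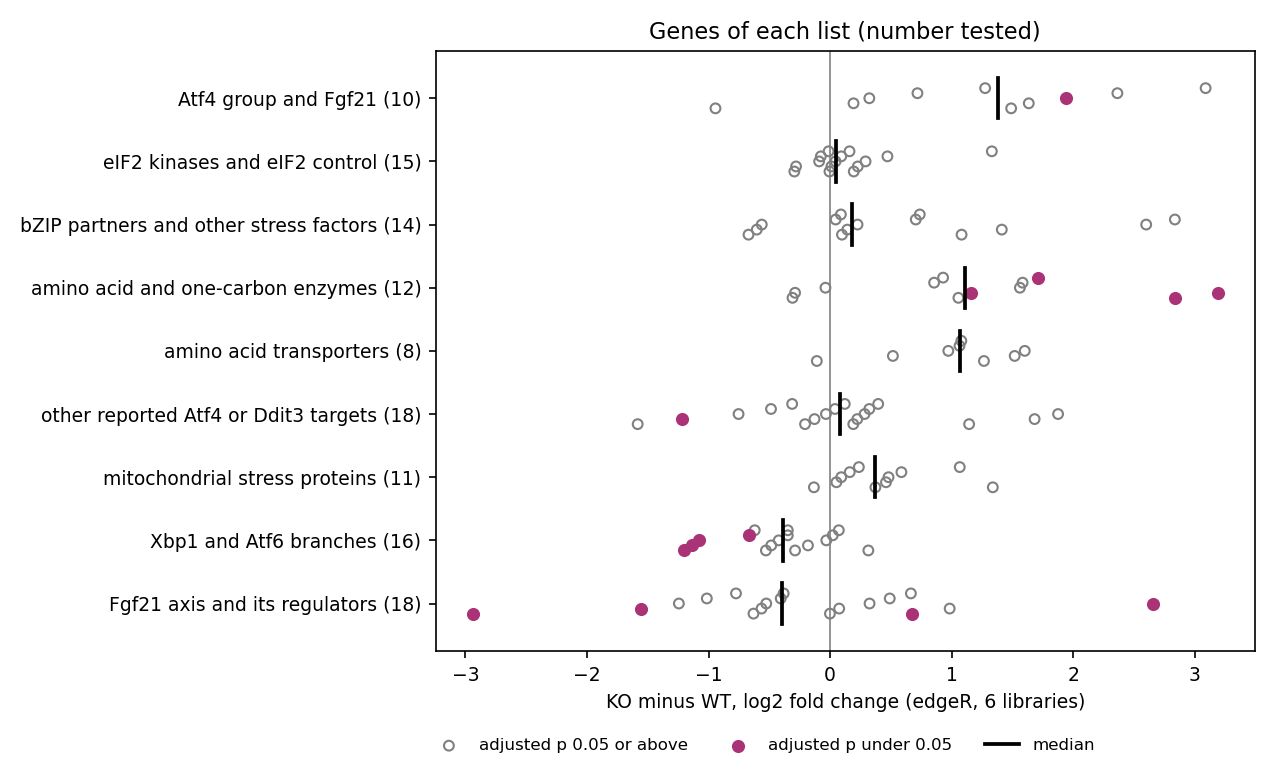
Log2 fold change (KO minus WT, 6 libraries) of each tested gene in the set of 10 and in 8 of the 9 other lists, with filled points for genes past an edgeR adjusted p of 0.05 and a black line for the median. The medians are 1.38 for the set of 10, 1.11 and 1.07 for the enzymes and transporters, and -0.38 for the XBP1 and ATF6 branches.

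Among 6 paralogs of the set (Trib1, Trib2, Sesn1, Sesn3, Chac2 and Asnsd1) 0 were called over the 6 libraries with edgeR or limma voom, 1 had an unadjusted p under 0.05 (against 26.3% of all genes), and 5 of the 6 had a change below 0. With DESeq2, with the Xist state as a term, in the Y-positive libraries and without KO 1, 1 was called lower in each case. The share of all genes called lower was 7.01% with DESeq2, 16.1% in the Y-positive libraries and 14.2% without KO 1. The fit with the Xist state called 1504 of 14539 genes in either direction. Sesn1, a sestrin induced by p53 and FoxO factors, had 9.61, 4.09 and 5.54 CPM in KO and 16.9, 15.5 and 12.9 CPM in WT, so that it was lower in every KO library where Sesn2 was level or higher (-1.23 ± 0.315, edgeR adjusted p = 0.0756, and -1.57 with 0.00443 in the Y-positive libraries).

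For the FGF21 axis, 18 genes for receptors, regulators and companion targets were read, of which 2 were called higher and 2 lower. Over all genes the shares called were 2.15% higher and 1.22% lower. Fgf1, a paracrine growth factor of the same family, had 40.0, 29.5 and 39.1 CPM in KO and 116, 99.9 and 103 CPM in WT, a fall of 1.55 on the log2 scale (SE 0.159, edgeR adjusted p = 0.0103). Acot1, a thioesterase and target of the fasting receptor PPAR-alpha, fell by 2.94 (SE 0.517, edgeR adjusted p = 0.0383), although near-identical copies may share its reads. Nr4a1, an orphan nuclear receptor induced by cyclic AMP, rose by 2.66 (SE 0.343, edgeR adjusted p = 0.0191), and the fourth, Fgfr4, the main liver FGF receptor, named after its values were seen, rose by 0.68 (SE 0.128, edgeR adjusted p = 0.0448). Ppara, which encodes PPAR-alpha, the best known activator of Fgf21, and Klb, the co-receptor beta-klotho, were also named after their values were seen. Ppara had 65.1, 19.3 and 30.5 CPM in KO and 95.4, 98.5 and 78.3 CPM in WT (-1.24 ± 0.418, edgeR adjusted p = 0.125). It was lowest in KO 2, the lowest library for 9 of the 18 genes and for 24.8% of all genes. KO 2 also had the most Fgf21, and a link between Ppara and Fgf21 was not tested. The change of Ppara was -1.83 in the Y-positive libraries (edgeR adjusted p = 0.00527) and -0.55 in the other pair. Klb did not differ beyond its spread (0.08 ± 0.232, edgeR adjusted p = 0.861). The 2 higher and 2 lower calls became 5 and 8 without KO 1, 4 and 9 in the Y-positive libraries and 3 and 3 with DESeq2. Without KO 1, 16.0% of all genes were called higher and 14.2% lower. These shares were 17.2% and 16.1% in the Y-positive libraries and 8.74% and 7.01% with DESeq2. In all 2 calls were left with a replicate block or without WT 1, 1 without KO 2 and 0 without KO 3, WT 2 or WT 3. Over all genes the block called 105, and the fits without KO 3, WT 2 and WT 3 called 35, 6 and 20.

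Genes with the most similar pattern over the 6 libraries were sought among 11963 genes by the Pearson correlation of log2 CPM, as a description. For Atf5 they were Jazf1, Tox2, Vcpkmt, Srp54b and 3930402G23Rik, with r from 0.994 to 0.998 and log2 fold changes from 1.25 to 5.33. All 5 were called higher, against 2.15% of all genes. Their choice by likeness to Atf5, itself called higher, made such calls likely, so they are no separate result. For Fgf21 they were Lpxn, the pseudogene Rps19-ps6, Slc1a4, Apbb3 and Sp110, with r from 0.981 to 0.999. None of the 5 was called in edgeR, against 3.37% of all genes called in either direction. Slc1a4, a carrier of serine and alanine on the transporter list, had 13.1, 22.8 and 10.1 CPM in KO and 10.8, 4.71 and 6.52 CPM in WT, with the same order of the libraries as Fgf21 except that WT 1 was above KO 3. The 6 points of each correlation share the split by genotype.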

How the data were processed

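The tools named are bcl2fastq 2.17, cutadapt 1.18, STAR 2.7.0f and RSEM 1.3.1, with genome build mm9, per the submitters' processing notes. The authors deposited expected counts per gene, estimated reads that are not scaled for depth or length, in 1 table of 6 libraries. Fractional values made up 4.93% to 5.47% of the 55450 rows in each library, rows without a count included. All 55450 gene identifiers with their versions were those of GENCODE M21 (GRCm38), which disagrees with the named build, so positions and exon lengths are from that annotation. The strand setting is not given in the sources used here, and reads of overlapping genes cannot be told apart. Each column was matched to 1 mouse by its description, and 0 columns were left over.

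Counts were rounded, filtered by filterByExpr, scaled by TMM and compared with edgeR 4.0.16 (quasi-likelihood test with no other term) in R 4.3.3. P-values were adjusted by Benjamini-Hochberg over all 14539 genes tested, with a threshold of 0.05. The SE is the log2 fold change divided by the square root of F. Log2 CPM used a prior count of 2. Nothing in the labels says more of the mice than that they are separate, so p-values measure the spread between these 6 animals. No library repeated another (chi-square per degree of freedom at least 28.9). A floor of 3 counts is 0.0515 to 0.0641 CPM, which covers counting error only.

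The 10 genes and the 9 pathway and 6 marker lists were chosen with earlier results of these data known. Named are the 10 genes, Stk11, up to 3 called genes of each pathway list with the smallest adjusted p (or, with none called, the 1 nearest), and 5 genes most like Atf5 and Fgf21 with a mean of at least 1 CPM. On simulated counts for the comparison of KO with WT (14316 genes, 200 changed), edgeR recovered 11 of 100 genes changed 2-fold and 76 of 100 changed 4-fold, with 7.45% false calls among 94. DESeq2 1.42.0 recovered 48 and 91, with 24.9% false calls among 185. Alternatives were other scalings and filters, DESeq2, limma 3.58.1 voom, a robust fit, the replicate number or the Xist state as a term, the 4 Y-positive libraries, and each library left out.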

Additional observations from a re-analysis of the deposited data

Results flagged for a closer look

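Eif2ak2, which encodes the eIF2 kinase PKR, had a difference between KO and WT that itself differed between the Xist-positive pair and the 4 Y-positive libraries. The difference in the Xist-positive pair was lower by 1.75 on the log2 scale (interaction -1.75, edgeR adjusted p = 0.0132). The log2 ratio was -0.01 in that pair, 1 library against 1, and the log2 fold change was 1.73 in the other libraries. The pair has no replicate, so the spread in this test comes from the 4 other libraries. Its KO library, KO 1, also kept more Stk11 (22.2 CPM) than KO 2 and KO 3 (14.4 and 11.4 CPM). Xist state and the extent of Stk11 loss therefore cannot be told apart here.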

How the results depend on the processing

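Of 160 refitted log2 fold changes of the 10 genes (16 alternatives each), 138 kept direction and side of the threshold, 15 newly passed it, 3 lost it (all Atf5) and 4 reversed. The reversals were Chac1 in the Y-positive libraries (0.24) and without WT 1 (0.14), and Trib3 (-0.39) and Ppp1r15a (-0.012) without KO 2. With a library left out, the change ranged from -1.73 to 0.14 for Chac1, from -0.39 to 1.74 for Trib3 and from -0.012 to 0.35 for Ppp1r15a. The 1 call among the 10 genes became 5 with DESeq2 (Asns, Atf5, Ddit3, Fgf21 and Gdf15), 6 in the Y-positive libraries (the same 5 and Atf4), 2 with the Xist state as a term (Asns and Atf5), and between 0 and 5 with a library left out. Over the 9 pathway lists, added as an alternative after seeing the data, the replicate block left 1 of the 4 amino acid enzymes, 0 of the 4 XBP1 and ATF6 genes, 2 of the 4 FGF21 axis genes and not Herpud1. Herpud1 was also lost without KO 2, KO 3, WT 2 or WT 3. Over all genes, 490 calls became 771 with no filter on low counts, 2290 with DESeq2, 1504 with the Xist state, 4847 in the Y-positive libraries, and between 6 and 4473 with a library left out. Scaling by library size alone moved the share of higher calls from 63.9% to 74.4%. The 421 genes with an interaction became 1607 with no filter. Replicate numbers did not pair the samples: deviations of same-numbered libraries correlated at 0.178, 0.044 and 0.068, and not every library correlated best with its own number. With a replicate block 105 genes were called, 2 of them among the 10 (Asns and Atf5). Counts of 13 to 209 for Chac1 and 22 to 514 for Fgf21 limit their precision. The cause of these changes was not tested.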
